A study of Homo sapiens with 4 samples.

Results

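The 10 SOX transcription factor genes described here are *SOX1*, *SOX2*, *SOX14*, *SOX21*, *SOX4*, *SOX11*, *SOX8*, *SOX9*, *SOX10*, and *SOX17*, out of 20033 protein-coding genes annotated in GENCODE 44 on hg38. They were chosen by name, with earlier results of these data known, so contrasts with other genes are descriptive. A peak was assigned to a gene when it overlapped the gene body or the 20 kb on either side. The data were 4 CUT&RUN peak lists from HSSY II cells, an established synovial sarcoma (SS) line that carries the SS18::SSX1 fusion. CUT&RUN cuts chromatin around an antibody-bound protein with a tethered nuclease and sequences the fragments that are released. The antibodies recognized SS18::SSX or WDR5, and the cells had received either DMSO or 2.5 μM MS67, a proteolysis-targeting chimera that degrades WDR5, for 4 days. There was 1 library for each of the 4 combinations, so replicate spread is unknown and no test was run. The series is of 1 cell line, and its identity could not be checked from lists of peaks. The question behind the comparison was whether WDR5 and SS18::SSX leave chromatin together when WDR5 is degraded.

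SOX proteins bind the minor groove of DNA through a high-mobility-group (HMG) box and bend it, and they steer cell fate in the embryo. The family is divided into groups by similarity of the HMG box. SOX1 and SOX2 (group B1) maintain neural progenitors and, for SOX2, pluripotency, whereas SOX14 and SOX21 (group B2) act mainly as repressors in the developing nervous system. SOX4 and SOX11 (group C) act in differentiating neurons and in many mesenchymal tissues. SOX8, SOX9, and SOX10 (group E) act in the neural crest, glia, testis, and cartilage, and SOX17 (group F) in endoderm and endothelium. SS18::SSX is the fusion that drives SS and is incorporated into SWI/SNF chromatin-remodeling complexes, and WDR5 is a scaffold subunit of the KMT2/MLL histone methyltransferase complexes. Many developmental regulators of this kind lie in CpG-rich regions kept silent by Polycomb in most cell types.

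The SS18::SSX lists held 15141 peaks with DMSO and 1175 with MS67, and the WDR5 lists held 35605 and 14123. Depth was recovered from the summits of the peaks, on the assumption that no control library was used. Genome coverage was 0.541 fragments per bp for SS18::SSX with DMSO, 0.737 for SS18::SSX with MS67, 0.368 for WDR5 with DMSO, and 0.168 for WDR5 with MS67. The MS67 library was thus deeper than the DMSO library for SS18::SSX by a factor of 1.36, and shallower for WDR5 by a factor of 0.458. The lists were not scaled to the spike-in. In a pooled culture, binding in fewer cells and weaker binding in each cell cannot be told apart.

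For each peak, −log10 q scores the summit pileup, the number of fragments stacked there, against its local background, and fold enrichment is the pileup plus 1 over the background plus 1. By −log10 q, the strongest SS18::SSX peak with DMSO had its summit within 1 kb of the start site at *SOX21* (84 bp) and *SOX17* (728 bp) and farther away at the other 6 SOX genes with a peak. The 6 sequences below show 200 bp of the hg38 plus strand at that summit, for the genes that had peaks of both proteins with DMSO. They are shown to make visible how different the bound sequences were, with every CpG dinucleotide in capitals. The *SOX21* summit is left out because it falls in an untranslated region, and *SOX17* is described by its values alone.
SOX1 (intergenic, 11457 bp before the start site), chr13:112055592-112055791: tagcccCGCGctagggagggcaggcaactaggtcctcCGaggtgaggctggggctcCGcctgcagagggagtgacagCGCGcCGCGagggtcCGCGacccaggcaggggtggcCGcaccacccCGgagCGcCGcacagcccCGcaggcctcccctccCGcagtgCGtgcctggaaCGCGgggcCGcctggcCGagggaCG
SOX2 (intron of the long noncoding RNA gene *SOX2-OT*, 7443 bp before the start site), chr3:181704382-181704581: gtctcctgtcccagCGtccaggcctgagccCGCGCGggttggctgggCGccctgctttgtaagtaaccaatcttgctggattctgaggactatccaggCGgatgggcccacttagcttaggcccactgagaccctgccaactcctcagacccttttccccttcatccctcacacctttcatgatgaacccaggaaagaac
SOX14 (intergenic, 1736 bp before the start site), chr3:137762479-137762678: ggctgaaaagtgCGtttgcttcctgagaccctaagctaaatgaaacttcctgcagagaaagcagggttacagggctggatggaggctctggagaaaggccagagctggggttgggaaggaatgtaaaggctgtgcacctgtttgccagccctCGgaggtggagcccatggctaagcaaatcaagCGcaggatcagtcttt
SOX11 (intron of the long noncoding RNA gene *LINC01248*, 19098 bp before the start site), chr2:5673186-5673385: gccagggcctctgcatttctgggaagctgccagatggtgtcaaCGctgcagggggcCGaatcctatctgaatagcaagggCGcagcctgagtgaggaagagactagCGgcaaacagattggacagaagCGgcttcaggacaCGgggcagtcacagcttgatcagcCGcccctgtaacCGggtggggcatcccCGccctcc
SOX8 (intergenic, 22029 bp past the start site), chr16:1003699-1003898: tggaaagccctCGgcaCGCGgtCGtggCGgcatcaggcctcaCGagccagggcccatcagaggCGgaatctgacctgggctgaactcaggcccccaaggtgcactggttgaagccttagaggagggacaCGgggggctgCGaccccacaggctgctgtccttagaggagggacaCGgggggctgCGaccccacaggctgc
SOX9 (intron of the antisense RNA gene *SOX9-AS1*, 3772 bp before the start site), chr17:72117148-72117347: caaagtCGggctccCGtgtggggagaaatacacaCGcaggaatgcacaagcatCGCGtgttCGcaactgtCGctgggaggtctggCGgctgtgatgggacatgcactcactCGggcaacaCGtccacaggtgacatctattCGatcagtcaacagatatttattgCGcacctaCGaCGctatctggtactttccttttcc
The *SOX1* sequence was the richest of the 6 in CpG, with 22 dinucleotides and 76.5% G+C. The *SOX14* sequence held 3 CpGs at 53.5% G+C, and the *SOX9* sequence held 14 at the same G+C content. *SOX8* differed from the other 5 in that a stretch of 42 bp stood again 45 bp further on, so the 200 bp contain a tandem repeat, whereas the longest repeated stretch of the others was 8 bp. How well reads map to that repeat was not tested. None of the 6 sequences held ACAAT or its reverse complement ATTGT, the core letters of the HMG-box motif.

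With DMSO, 8 of the 10 SOX genes had at least 1 SS18::SSX peak in the window, and the exceptions were *SOX4* and *SOX10*. Over all protein-coding genes, the share with a peak in such a window was 37.1%. The 10 genes together held 52 SS18::SSX peaks, with a median of 4 per gene against a median of 0 over all genes. WDR5 peaks were found in all 10 windows with DMSO, where the share over all protein-coding genes was 79.2%, so that count is not far from the background. There were 30 WDR5 peaks in the 10 windows, with a median of 2.5 per gene against 2 over all genes.

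**Figure D1:**
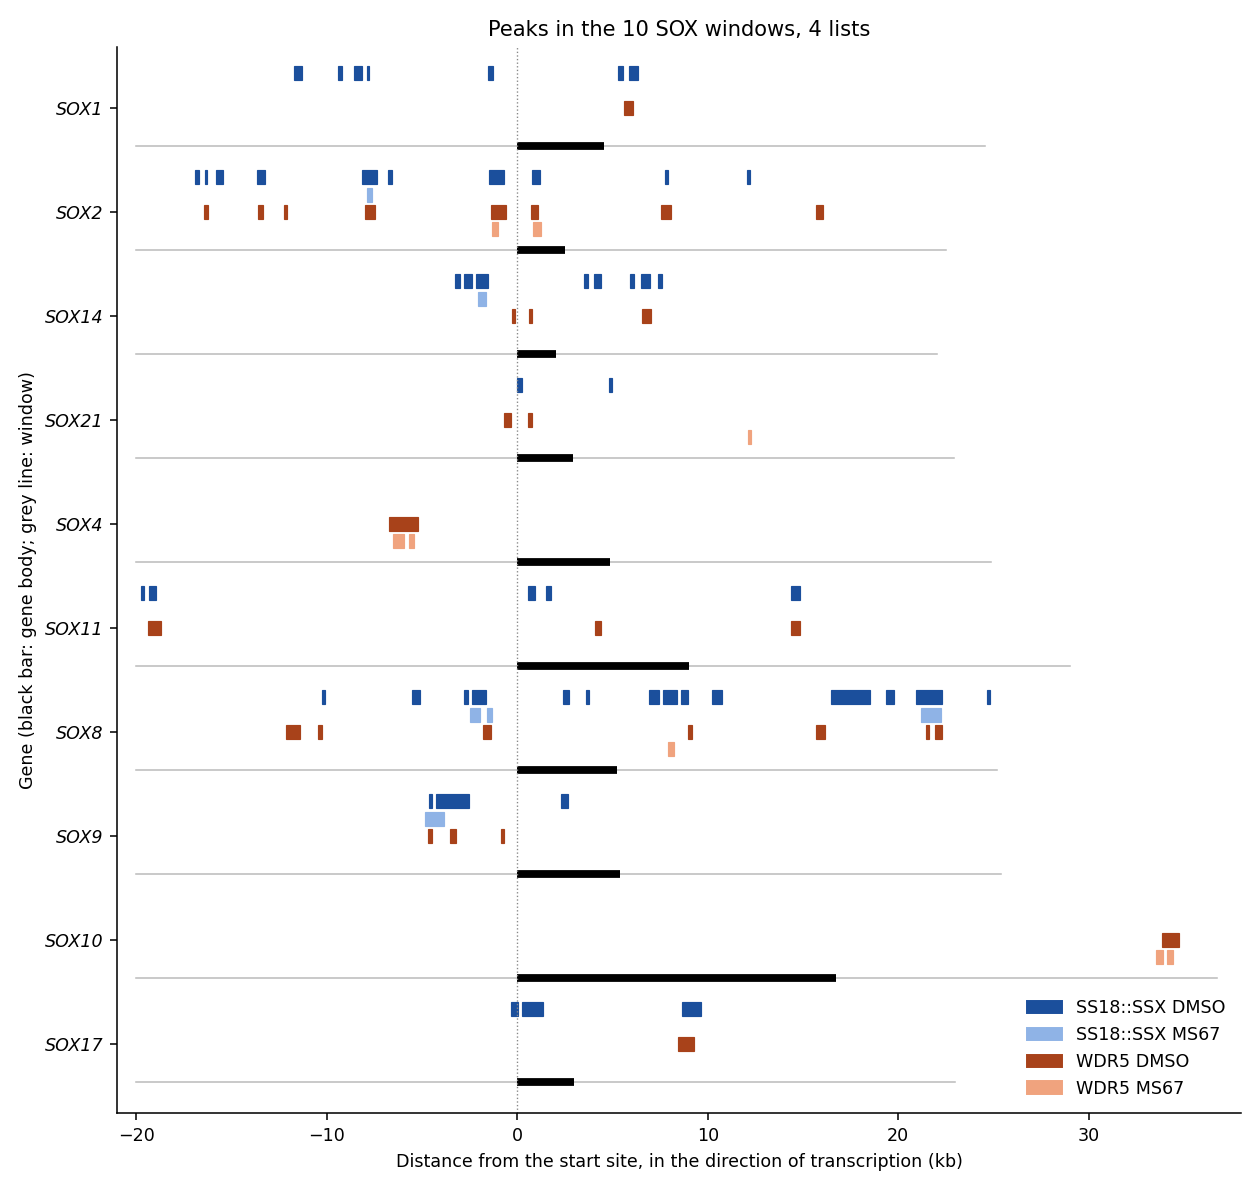
Position of each peak (colored blocks, drawn to scale) relative to the annotated start site of each SOX gene, in kb along the direction of transcription, for the 4 lists. Black bars are gene bodies and grey lines the windows. SS18::SSX blocks with DMSO lie mostly on either side of the gene bodies, where most of each window lies. Few light-colored MS67 blocks are left.

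In windows of equal size, 20 kb on either side of the start site, the SOX genes differed widely. *SOX8* had 12 SS18::SSX peaks, and at least as many were found at 0.285% of protein-coding genes (57 genes). *SOX2* had 10, a number reached by 0.559% of genes, and *SOX14* had 8, reached by 1.04%. *SOX1* with 7 and *SOX11* with 5 stood at 1.36% and 2.48%. *SOX9* and *SOX17* had 3 peaks each, a number that 5.89% of genes reached, and *SOX21* had 2, reached by 11.7%. For WDR5, *SOX2* stood out among the SOX genes with 8 peaks, a number reached by 0.504% of genes, followed by *SOX8* with 5 at 6.29%. The other 8 SOX genes had 0 to 3 WDR5 peaks, numbers that at least 24.9% of all genes reached.

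**Figure D2:**
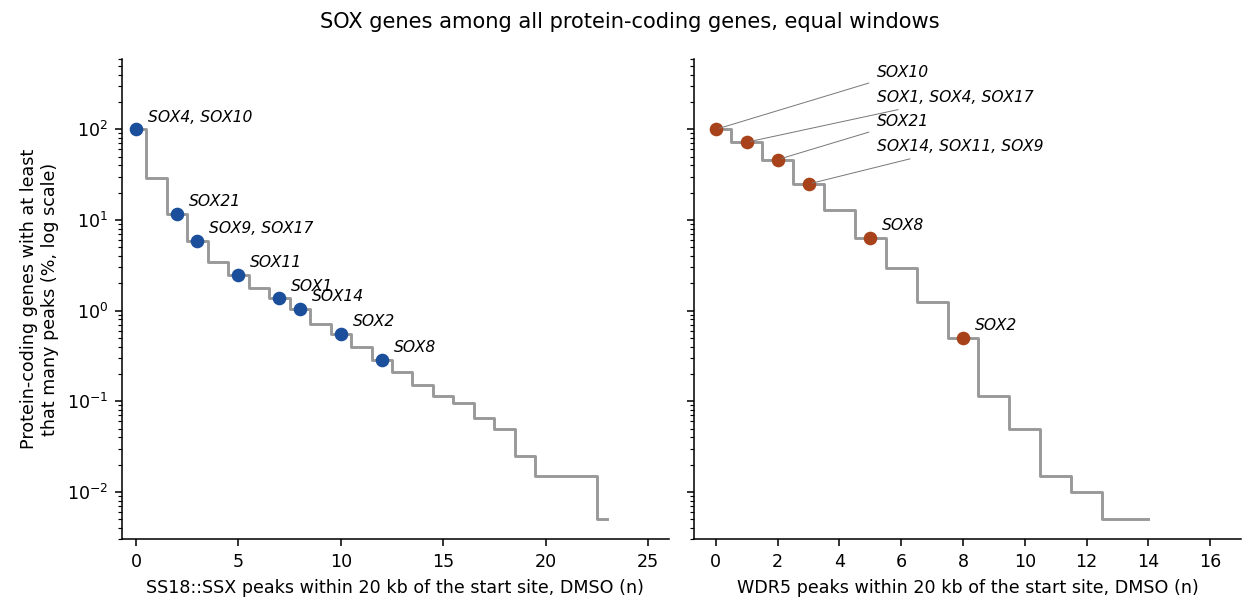
Share of the 20033 protein-coding genes (vertical axis, percent, log scale) with at least a given number of peaks within 20 kb of the start site (horizontal axis), for SS18::SSX (left) and WDR5 (right) with DMSO. Points mark the SOX genes; *SOX8* (12 SS18::SSX peaks) and *SOX2* (10) lie far down the left curve, whereas *SOX2* (8) and *SOX8* (5) are the lowest points on the right.

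Most SS18::SSX summits lay in the flanks, which also make up most of each window. Of the 52 summits, 24 lay upstream of the start site, 8 in the gene body, and 20 past the gene end. The gene bodies of the 8 genes with a peak are 2020 bp (*SOX14*) to 9002 bp (*SOX11*) long, beside 20 kb on either side. A promoter peak has its center from 1000 bp upstream to 100 bp downstream of an annotated start site. For SS18::SSX it was found at *SOX17* alone, and 1 of 10 genes is close to the 13.4% of all protein-coding genes. The limit was close for some genes. The *SOX17* peak was centered 148 bp upstream, whereas the nearest peaks outside were centered 120 bp downstream at *SOX21* and 1085 bp upstream at *SOX2*. WDR5 promoter peaks were found with DMSO at *SOX2*, *SOX14*, *SOX21*, and *SOX9*, with centers 993, 208, 520, and 772 bp upstream, and 4 of 10 genes is close to the 43% of all genes. With MS67, none of the 10 SOX genes had a promoter peak of SS18::SSX (0.724% of all genes) or of WDR5 (27.7%). The limit matters for WDR5 at *SOX2*, where an MS67 peak overlapped the DMSO promoter peak but was centered 1167 bp upstream. At *SOX14* and *SOX9*, no WDR5 peak would pass at the depth of the MS67 library, as described below.

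An overlap of at least 1 bp with a WDR5 peak was found for 15 of these 52 with DMSO, or 28.8% [95% confidence interval (CI), 17.1 to 43.1%, exact, for counting error only], against 33.7% of the whole SS18::SSX list. Seen from WDR5, 16 of the 30 peaks overlapped an SS18::SSX peak, or 53.3% (95% CI, 34.3 to 71.7%), against 13.9% of the whole WDR5 list. Neighboring peaks of a gene are not independent of each other. *SOX2* contributed 6 of the 15 overlapping SS18::SSX peaks and 6 of the 16 overlapping WDR5 peaks. *SOX8*, with the most SS18::SSX peaks, contributed 2 of its 14. The windows were rich in SS18::SSX peaks, with a mean of 5.2 per gene against 0.959 over all protein-coding genes. The part of this density in the 53.3% was not tested.

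In group B1, *SOX1* (chr13:112067149-112071706, plus strand, a single exon) had 7 SS18::SSX peaks with DMSO and 0 with MS67, and 1 WDR5 peak with DMSO and 0 with MS67. Its strongest SS18::SSX peak had a −log10 q of 16.2, a pileup of 56 fragments at the summit, and a fold enrichment of 4.72 over its local background. The next strongest lay 5439 bp past the start site, with a −log10 q of 8.66 and a pileup of 34. All but the most upstream peak lay in introns of *SOX1-OT*, a long noncoding RNA gene that contains *SOX1*. The single WDR5 peak was weaker, with a pileup of 10 and a −log10 q of 4.29, and it overlapped the last of the 7 SS18::SSX peaks. None of the *SOX1* peaks of either protein had an overlapping peak with MS67.

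*SOX2* (chr3:181711925-181714436, plus strand, a single exon) had 10 SS18::SSX peaks with DMSO and 1 with MS67, and 8 WDR5 peaks with DMSO and 2 with MS67. It lies within *SOX2-OT*, and 2 of its SS18::SSX peaks were at start sites of that RNA. The strongest WDR5 peak of all 10 SOX windows was in the *SOX2* exon, 903 bp past the start site, with 41 fragments and a −log10 q of 16.97. An SS18::SSX peak with 24 fragments and a −log10 q of 7.72 had its summit 899 bp past the start site, within 4 bp of the WDR5 summit. The same exon peak of WDR5 had an overlapping peak with MS67, with 15 fragments and a −log10 q of 3.91. The WDR5 peak with its summit 759 bp upstream also had one, with 29 fragments with DMSO and 12 with MS67. For SS18::SSX, the 1 peak called with MS67 lay 7652 bp upstream, where 30 fragments with DMSO compared with 43 with MS67. At both SS18::SSX sites near the start site, no SS18::SSX peak was called with MS67.

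In group B2, *SOX14* (chr3:137764315-137766334, plus strand, a single exon) had 8 SS18::SSX peaks with DMSO and 1 with MS67, and 3 WDR5 peaks with DMSO and 0 with MS67. The SS18::SSX peaks formed a cluster of 3 from 3218 to 1736 bp upstream and a cluster of 5 from 3625 to 7381 bp past the start site, with none between. The 3 WDR5 peaks fell differently: one 155 bp upstream, one in the exon 755 bp past the start site, and one 6893 bp past it at the start of *LINC01210*. The last of them overlapped an SS18::SSX peak. *SOX21* (chr13:94709622-94712545, minus strand, a single exon) had 2 SS18::SSX peaks with DMSO and 0 with MS67, and 2 WDR5 peaks with DMSO and 1 with MS67. Its WDR5 promoter peak, 472 bp upstream, had 33 fragments and a −log10 q of 12.7, whereas its SS18::SSX peaks had 17 and 18 fragments. The WDR5 promoter peak and the SS18::SSX peak 84 bp past the start site also lay at promoters of the antisense RNA gene *SOX21-AS1*. The WDR5 peak called with MS67 at *SOX21* was elsewhere, 12196 bp past the start site in *LINC00391*, and was of 5 fragments.

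Group C was divided. *SOX11* (chr2:5692384-5701385, plus strand, a single exon) had 5 SS18::SSX peaks with DMSO and 0 with MS67, and 3 WDR5 peaks with DMSO and 0 with MS67. Its SS18::SSX peaks had the lowest median pileup of the 8 genes with a peak, 15 fragments, and ranged from 10 to 18. A pair of them was in the *SOX11* exon, 632 and 1581 bp past the start site. The other 3 were far from the start site, at 19715 and 19098 bp upstream and 14775 bp past the start site, and at both distant places a WDR5 peak overlapped. *SOX4* (chr6:21593751-21598619, plus strand, a single exon) had no SS18::SSX peak in either list. Its window held 1 WDR5 peak with DMSO and 2 with MS67. The DMSO peak was 1532 bp wide, its summit 5974 bp upstream held 22 fragments, and both MS67 peaks, with 14 and 13 fragments, lay inside it.

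In group E, *SOX8* (chr16:981770-986979, plus strand) had the most peaks, with 14 for SS18::SSX with DMSO and 3 with MS67, and 7 for WDR5 with DMSO and 1 with MS67. The SS18::SSX peaks with DMSO covered 8152 bp, or 18.0% of the window, the next being *SOX2* with 3544 bp or 8.34%. Summit pileups ranged from 19 to 110 fragments, and the 4 deepest were past the gene end. Fold enrichment over the local background was nevertheless low, from 1.80 to 2.99, because the local background itself was high, as described below. Neighboring genes share this window: WDR5 and SS18::SSX peaks marked the promoters of *LMF1*, which encodes a lipase maturation factor, and of the long noncoding RNA gene *CEROX1*. With MS67, the 3 SS18::SSX peaks lay at 2178 and 1482 bp upstream, both at the promoter of *CEROX1*, and 22195 bp past the start site. None of the 7 WDR5 peaks of *SOX8* had an overlapping MS67 peak, and the WDR5 peak called with MS67, 8105 bp past the start site, overlapped no DMSO peak of WDR5.

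*SOX9* (chr17:72121020-72126416, plus strand) had 3 SS18::SSX peaks with DMSO and 1 with MS67, and 3 WDR5 peaks with DMSO and 0 with MS67. A cluster of both proteins lay upstream, from about 4592 to 3445 bp before the start site, and its widest SS18::SSX peak spanned 1711 bp. The single MS67 peak, with 38 fragments and a −log10 q of 5.16, overlapped both SS18::SSX peaks of that cluster, so *SOX9* was the only SOX gene at which most SS18::SSX peaks, 2 of 3, had an overlapping MS67 peak. The third, in an intron of *SOX9* 2399 bp past the start site, had none. *SOX10* (chr22:37970686-37987422, minus strand) had no SS18::SSX peak in either list, and 1 WDR5 peak with DMSO and 2 with MS67. These WDR5 peaks were 34231, 34263, and 33611 bp past its start site and lay at the promoters of *POLR2F*, a subunit of RNA polymerases, and *C22orf23*. None was within 20 kb of the 5′-most *SOX10* start site.

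In group F, *SOX17* (chr8:54457935-54460892, plus strand) had 3 SS18::SSX peaks with DMSO and 0 with MS67, and 1 WDR5 peak with DMSO and 0 with MS67. The strongest SS18::SSX peak, in its intron 728 bp past the start site, was 1117 bp wide and had 32 fragments and a −log10 q of 10.7. The promoter peak next to it had 21 fragments and a −log10 q of 3.60. No WDR5 peak overlapped either, and the 1 WDR5 peak met the third SS18::SSX peak about 9 kb past the start site, with summits at 8668 and 9121 bp.

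**Figure D3:**
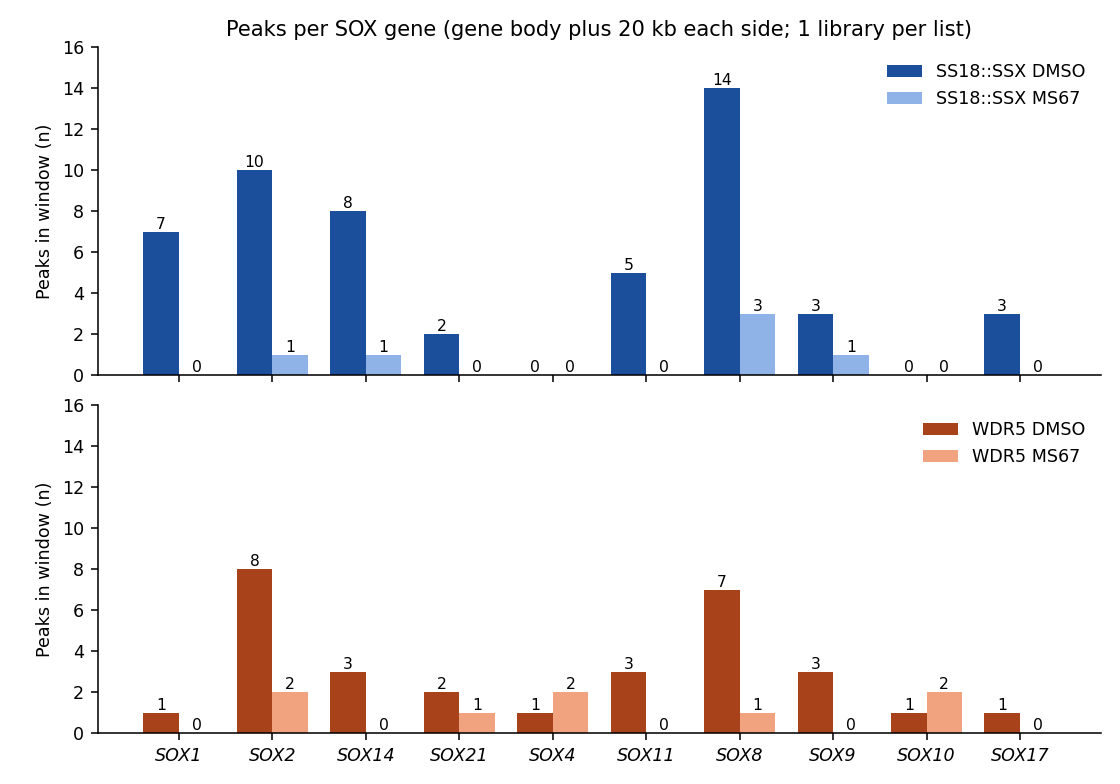
Number of peaks (vertical axis) in the window of each SOX gene, for SS18::SSX (upper) and WDR5 (lower), with DMSO (dark bars) and MS67 (light bars), 1 library each. SS18::SSX bars are lower with MS67 at the 8 genes that had any, and WDR5 bars are lower at 8 genes and higher at *SOX4* and *SOX10* (1 and 2).

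With MS67, 46 of the 52 SS18::SSX peaks at the SOX genes had no overlapping SS18::SSX peak, or 88.5% (95% CI, 76.6 to 95.6%), against 94.2% of the whole DMSO list. The interval includes the value of the whole list. The 4 SOX genes *SOX2*, *SOX14*, *SOX8*, and *SOX9* had an SS18::SSX peak in the window with MS67, where 4.53% of all protein-coding genes had one. The 6 SS18::SSX peaks that had an overlapping MS67 peak were at these 4 genes, and 5 of the 6 also overlapped a WDR5 peak with DMSO. Among the SS18::SSX peaks of the SOX genes, an MS67 counterpart was thus found for 5 of 15 (33.3%; 95% CI, 11.8 to 61.6%) with WDR5 overlap and 1 of 37 (2.70%; 95% CI, 0.0684 to 14.2%) without. In the whole list, the shares were 7.94 and 4.72%. The 5 peaks were at *SOX2*, *SOX8*, and *SOX9*, and both at *SOX9* overlapped the same MS67 peak. They are not independent, and the intervals do not allow for this. The split was added later. The 6 peaks were also wider (median 750 bp against 338.5 bp), with a median pileup of 35.5 fragments against 30.5 for the other 46, and the part of width and depth in this contrast was not tested.

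For WDR5, 26 of the 30 peaks had no overlapping MS67 peak, or 86.7% (95% CI, 69.3 to 96.2%), against 75% of the whole list. *SOX2*, *SOX21*, *SOX4*, *SOX8*, and *SOX10*, or 5 SOX genes, had a WDR5 peak in the window with MS67, where 60.1% of all genes did. The 4 peaks with a counterpart were the pair at the *SOX2* start site and the single ones in the *SOX4* and *SOX10* windows. The WDR5 library with MS67 was the shallowest, and depth bears directly on these counts. When the pileup and background of each DMSO peak were multiplied by the ratio of coverages, 12 of the 30 WDR5 peaks would still pass the smallest −log10 p of the MS67 list, 4.06, or 40%, against 43.7% of the whole list, and 4 did have a counterpart. At *SOX8*, *SOX9*, *SOX14*, and *SOX1*, none of the 14 WDR5 peaks would pass after that scaling, so a loss of these peaks was not detectable at this depth. At *SOX2* 6 of 8 would pass and 2 had a counterpart, at *SOX11* 2 of 3 would pass and none had one, and at *SOX21* and *SOX17* 1 each would pass and none had one. The same scaling left all 52 SS18::SSX peaks above the MS67 threshold of 5.04, and 96.9% of the whole list, since that library was deeper. It scales the DMSO background by coverage alone. A higher local background with MS67, as at the *SOX2* site described below, is not allowed for.

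Peak counts leave out the level of the surroundings. By default, MACS2 scores a summit against the mean coverage of the surrounding 10 kb where this exceeds the genome coverage, so broad signal or a cluster of peaks raises its own background. Divided by the genome coverage of the library, the background at the 52 SS18::SSX peaks had a median of 16.3 and ranged from 3.18 to 67.7, against a median of 5.72 over the whole DMSO list. It was lowest at *SOX11*, with a median of 4.61, and highest at *SOX8*, with a median of 38.5. *SOX1* (20.5) and *SOX14* (20.2) followed, then *SOX9* (14.1), *SOX2* (10.7), *SOX17* (9.58), and *SOX21* (8.34). This mean includes the summit and any neighboring peaks, so it does not separate them from the signal between them, and it is of the same library only if no control library was used. For WDR5 the background at the 30 SOX peaks had a median of 13.0, against 4.91 over the whole list.

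At sites with overlapping peaks in both libraries, the background can be compared between DMSO and MS67. These sites were selected by still being called, and with 1 library each the ratios have no error from replicates. For SS18::SSX at the distal *SOX8* site, the summit stood at 203 times the genome coverage with DMSO and 100 times with MS67, a ratio of 0.494, while the background went from 67.7 to 50.6, a ratio of 0.748. At the *CEROX1* site of *SOX8* the ratios were 0.637 for the summit and 0.714 for the background. *SOX14* had ratios of 0.734 and 0.915, and *SOX9* had 0.845 and 1.02. Over the 859 such SS18::SSX pairs of the whole lists, the median ratios were 0.685 for the summit and 0.846 for the background and the quartiles of the summit ratio were 0.567 and 0.838.

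*SOX2* differed. Its SS18::SSX summit 7 kb upstream stood at 55.5 times the genome coverage with DMSO and 58.3 with MS67, a ratio of 1.05, and its background went from 11.1 to 26.3, a ratio of 2.36. A ratio at least as high was found at 18 of the 859 pairs, or 2.10%. At that background, at least 41 fragments were needed for a call with MS67. The 30 fragments with DMSO correspond to 40.9 at the MS67 depth, so a summit of unchanged relative height was at the limit of being called. Whether the raised background bears on the 9 SS18::SSX peaks of *SOX2* without an MS67 counterpart was not tested. For WDR5 at *SOX2*, the summit ratio was 0.903 at the promoter site and 0.798 in the exon. The background ratio was 0.965 at the promoter site and 1.02 in the exon. At the *SOX4* site the WDR5 summits stood higher with MS67 relative to the genome coverage, with ratios of 1.39 and 1.29, and at the site in the *SOX10* window lower, with 0.873 and 0.764. The median over the 9094 WDR5 pairs was 1.25 for the summit.

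**Figure D4:**
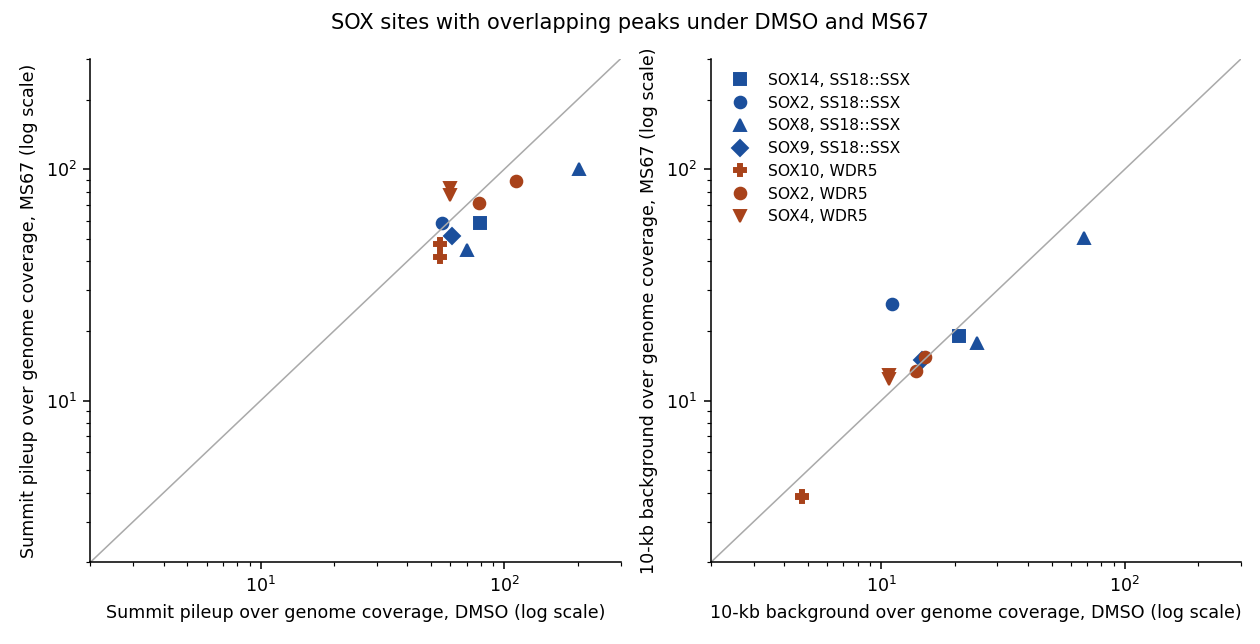
Summit pileup (left) and 10-kb background (right), each divided by the genome coverage of its library, at SOX sites with overlapping peaks under DMSO (horizontal axis) and MS67 (vertical axis), both on log scales; the line marks equal values. The SS18::SSX site of *SOX2* lies above the line in the right panel (11.1 and 26.3), and the other SS18::SSX sites lie near or under it.

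Base composition set *SOX8* apart from the other genes. Over the 52 SS18::SSX peaks, the median G+C content was 62.7%, against 60.6% for the whole DMSO list, and the median ratio of observed to expected CpG was 0.559 against 0.356. Peaks with over 50% G+C and a CpG ratio above 0.6 made up 23 of the 52, or 44.2%, against 23.4% of the list. None of the 14 *SOX8* peaks was among the 23, and their CpG ratios ran from 0.148 to 0.463. At the other 7 genes with a peak, the median ratio was 0.651, and 23 of 38 peaks met both limits, including all 3 at *SOX17*, both at *SOX21*, and 6 of 8 at *SOX14*. For the WDR5 peaks with DMSO, 16 of 30 met them, or 53.3%, against 31.4% of the list.

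**Figure D5:**
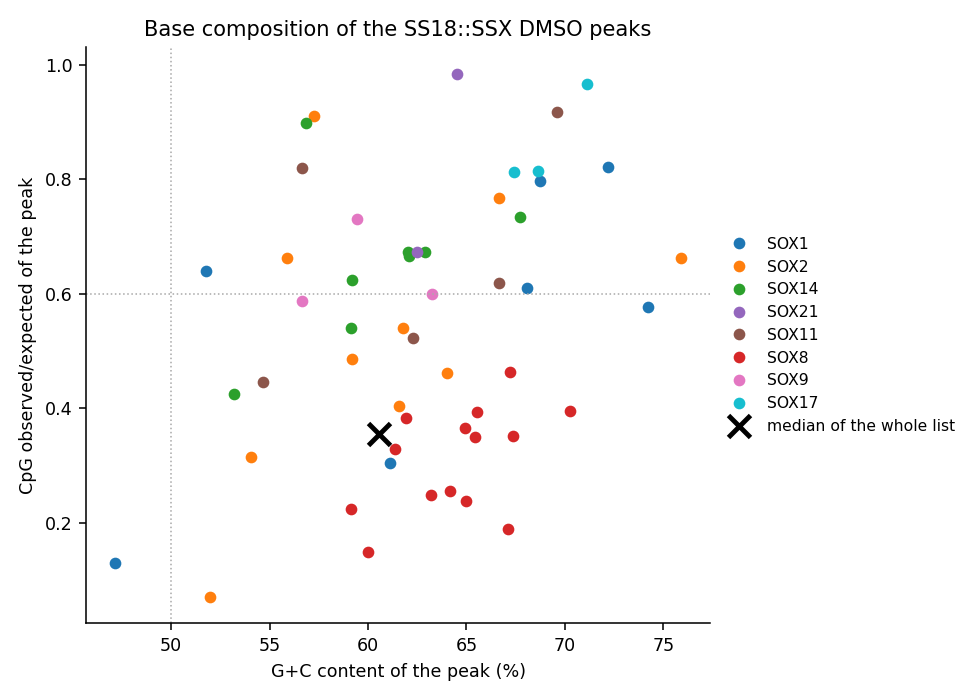
G+C content (horizontal axis, percent) and observed over expected CpG (vertical axis) of each SS18::SSX peak with DMSO in the SOX windows, colored by gene; dotted lines mark 50% and 0.6, and the cross the median of the whole list. The *SOX8* points lie under the dotted line at 0.6, and *SOX17* and *SOX21* points above it.

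Sequence motifs were searched on both strands in 200-bp windows at the summits. The letters ACAAT or ATTGT, a core that SOX proteins recognize, were in 6 of the 52 SS18::SSX windows (11.5%), against 13.4% of all SS18::SSX DMSO windows. CCAAT or ATTGG, bound by the trimeric factor NF-Y, was in 13 of 52 (25%; 95% CI, 14.0 to 38.9%), against 18.4%. The palindromic E-box CACGTG was in 1 of 52, against 4.42%. For WDR5, the SOX core was in 1 of 30 windows (3.33%; 95% CI, 0.0844 to 17.2%), against 15.5% of the list, which the interval includes. Over whole WDR5 peaks it was in 7 of 30 (23.3%), against 24.4% of the list. A match is a description of the letters and not of a bound factor.

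The other 9 SOX genes examined were *SOX3*, *SOX5*, *SOX6*, *SOX7*, *SOX12*, *SOX13*, *SOX15*, *SOX18*, and *SOX30*. With DMSO, 8 of the 9 had an SS18::SSX peak, against 37.1% of all protein-coding genes, and the exception was *SOX30*. The total was 25, in windows of unequal size. In the windows of 20 kb on either side of the start site, 6 of the 9 had one, where 29.1% of all protein-coding genes did. The median there was 1 per gene, against 4 for the 10 genes above and 0 over all genes. Of their SS18::SSX peaks 48% overlapped a WDR5 peak, and of their WDR5 peaks 23.3% overlapped an SS18::SSX peak. *SOX18*, a group F gene of endothelial development, had the most SS18::SSX peaks among the 9, with 8, and also 8 for WDR5, and none of either with MS67. The most WDR5 peaks, 16, were at *SOX5*, whose window is far longer. None of the 25 SS18::SSX peaks had an overlapping MS67 peak, close to the whole list, where 94.2% had none. For WDR5 37 of 43 had none, against 75% of the whole list. SS18::SSX promoter peaks were found with DMSO at 3 of the 9, namely *SOX3*, *SOX5*, and *SOX18*, against 13.4% of all protein-coding genes.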

How the data were processed

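CUT&RUN was performed by the authors on HSSY II cells with 5% murine spike-in cells. Per the study's methods, reads were aligned to hg38 and mm10 with Bowtie2 (v2.4.4) and peaks called with MACS2 (v2.2.6) in each library; MACS2 options and control are not given in the sources used here. For each peak, the authors deposited a position, a fold enrichment (the ratio of summit pileup plus 1 to local background plus 1), and −log10 p- and q-values; no other unit was used. Summit pileup and background were recovered from fold and −log10 p, and whole pileups matched 100% of peaks within 0.001 in −log10 p. The lowest background of a list was taken as genome coverage; this and the reading of the background as coverage of the same library assume that no control library was used. The step was tested on simulated data. The 10 genes and all lists were chosen with earlier results of these data known. All 10 genes are named, with neighbors whose start site or exon a peak touched. Neighbors known only by an identifier are left out. Sequences follow the strongest SS18::SSX peak. The other 9 SOX genes are given by counts. Positions are from GENCODE 44; overlaps need 1 bp; intervals are exact Clopper-Pearson (95%). Windows of equal size, distal counts, and the split by WDR5 were added later. Spike-in–scaled signals were not analysed here. The tools were pandas 2.3.3, scipy 1.17.1, and numpy 2.4.6 in Python 3.11.15, with plots in matplotlib 3.10.9.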

Additional observations from a re-analysis of the deposited data

How the results depend on the processing

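Of 55 alternatives for 9 results, 38 left the value within 1.5 times a count or within the interval of a share, and 17 did not. For promoter peaks with MS67 the main value was 0, so stricter peaks or fewer start sites could only return 0. Those alternatives were fixed in advance and are counted among the 38. Windows of 5 kb gave 28 SS18::SSX and 14 WDR5 peaks with DMSO. Peaks with −log10 q above 5 gave 21 and 11, and a stricter standard that the study used for overlaps (−log10 q above 3 with a fold above 3 for the SS18::SSX list and above 6 for the WDR5 list) gave 26 and 3. Merging within 1 kb gave 32 SS18::SSX peaks. The share without an MS67 peak was 96.2% for SS18::SSX under the stricter standard, and for WDR5 it was 100% both under that standard and with −log10 q above 5. No WDR5 MS67 peak in the SOX windows reached either limit, the highest −log10 q being 4.24 and the highest fold 5.47. The 100% was therefore fixed in advance and carries no information on loss. For SS18::SSX, only the MS67 peak at *SOX9* met the stricter standard in the SOX windows (fold 3.25). The 96.2% was thus nearly fixed as well. Shares of the whole lists under these settings are not given here. SOX genes with an SS18::SSX promoter peak with DMSO numbered 4 with centers up to 1 kb on either side, 3 with any overlap, and 0 with −log10 q above 5; for WDR5 they numbered 2 with −log10 q above 5 and 0 under the stricter standard. SS18::SSX peaks that overlapped WDR5 made up 7.69% under the stricter standard and 53.8% within 1 kb. These settings keep fewer or join peaks, or widen the distance counted. No paired analysis was possible because each condition had 1 library and no result comes from a test. Depth, 1 library per condition, and lists not scaled to the spike-in limit the WDR5 comparison.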

Other observations

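The surroundings of the SOX genes, from 20 to 500 kb on either side, were counted after the windows had been seen. At each of the 8 genes with SS18::SSX peaks with DMSO, these were denser per 100 kb in the window than in the surroundings. The same was not computed for other genes. The contrast was most extreme at *SOX14*, with 8 in its window and 1 in the surroundings, and *SOX17*, with 3 and 0. *SOX1* had 7 and 14, and *SOX21* had 2 and 7. *SOX2* had 10 and 9, which is 23.5 peaks per 100 kb near the gene and 0.938 per 100 kb around it, against 0.490 over the genome. *SOX8* was different, with 156 SS18::SSX peaks in its surroundings, or 16.3 per 100 kb, and 31.0 per 100 kb in the window itself. With MS67, the surroundings of *SOX8* held 20 SS18::SSX peaks, and those of the other 9 genes together held 1, near *SOX21*. *SOX10*, without an SS18::SSX peak in its window, had 10 in its surroundings with DMSO, and *SOX4* had 5. WDR5 peaks in the surroundings of *SOX17* numbered 5 with DMSO and 5 with MS67, and around *SOX14* they numbered 8 and 6. In the windows of both genes no WDR5 peak was called with MS67. At *SOX14* none of the 3 window peaks would pass at the MS67 depth, so a loss there was not detectable. Around every other SOX gene the number fell more steeply, as with 5 and 0 at *SOX1*, 19 and 3 at *SOX21*, and 42 and 19 at *SOX10*.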
